A study of Homo sapiens with 4 samples.

Results

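Interferon-stimulated genes are the genes that cells switch on when they meet interferon, the cytokine family that warns of viral infection. The 47 genes described here were given as a list of symbols and were found by name in the count table, where 47 of 47 had a row among 63241 genes. Of these, 46 reached a level of at least 1 CPM, counts scaled to 1000000 per library, in at least 1 library, as did 16136 genes of the whole table. The exception was CMPK2, which encodes a mitochondrial nucleotide kinase and had 4 counts or fewer in each library.

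The cells were LX-2, an established human cell line derived from hepatic stellate cells, which make the scar matrix of a fibrotic liver. All cultures were first starved for 24 h in medium with 0.5% serum. The control library came from cells labelled Control, with no TGF-β named. The other 3 groups received TGF-β at 20 ng/mL for 24 h, either with no inhibitor (its column name adds DMSO) or together with BDS4 or RVX-208 at 5 µM. RVX-208 (apabetalone) inhibits BET bromodomain proteins with a preference for their second bromodomain. BDS4 is known here only by its code name, in a study on inhibitors of the first bromodomain of the BET proteins. Its column is named TGF_9d_1 and was matched to BDS4 through the sample description alone. The numbers that end the column names of the libraries are not explained in the labels. BET proteins bind acetylated histones and help RNA polymerase II to start productive transcription. A vehicle for the control is not named in its labels, so vehicle and TGF-β cannot be told apart.

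There was 1 library for each of the 4 groups, so no difference could be set against variation between cultures and no test across replicates was possible. A gene is called higher or lower where its ratio between 2 libraries is at least 2 and the 95% counting interval of that ratio, given in brackets, excludes 1. This is a rule of size, and the interval covers counting error only. Libraries held 17022369 to 22503094 counts, and a floor of 3 counts corresponded to 0.128 to 0.177 CPM. The stellate cell markers VIM (3356 to 4034 CPM) and COL1A1 (99.7 to 4769 CPM) were abundant, while LRAT, which marks quiescent stellate cells, was listed at 0 in every library. Of 10 stellate or myofibroblast markers listed, 8 reached 1 CPM in some library. The median level of the 10 was 14.4 CPM in the control, 17.8 with TGF-β, 3.50 with BDS4 and 13.2 with RVX-208. Markers of plasmacytoid dendritic cells, a main source of interferon in blood, had at most 7 counts in sum per library, and the leukocyte marker PTPRC had at most 4. PTPRC is 1 of 6 leukocyte and macrophage markers listed, of which 3 reached 1 CPM in some library. These 6 had 845, 401, 421 and 195 counts in sum in the control, TGF-β, BDS4 and RVX-208 libraries. HEXIM1, whose mRNA commonly rises when BET proteins are inhibited, stood at 155 CPM in the control, 169 with TGF-β, 604 with BDS4 and 251 with RVX-208.

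In the textbook pathway, type I and type III interferons bind receptors that carry the kinases JAK1 and TYK2. The signal leads to the ISGF3 complex, which holds STAT2 and the DNA-binding subunit IRF9. ISGF3 binds the interferon-stimulated response element (ISRE) near the start of most of the genes listed here. Type II interferon acts through the gamma-activated sequence (GAS). Without infection many cells keep a low, tonic level of these mRNAs.

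The ISRE core was searched as GAAA, any 2 bases and GAAA, or on the other strand TTTC, any 2 bases and TTTC, in RefSeq promoter windows (GRCh38.p14) from 250 bases before to 50 bases after each listed start. Windows were found for 38 of the 47 members. An ISRE core lay in at least 1 window of 28 of these 38 (73.7%), against 1195 of 27305 genes with a window (4.38%). The GAS motif TTCNNNGAA, which reads the same on both strands, lay in a window of 12 of the 38 (31.6%), against 2560 of 27305 (9.38%). A match describes letters and is not a measured binding site. The 150 bases before the start are shown for 8 of the 24 measured members with a whole core there: first the 4 with the lowest and then the 4 with the highest log2 ratio of BDS4 over TGF-β, so that the level of response can be read beside the letters. Capitals mark the ISRE cores, which may overlap, and each line reads 5′ to 3′ on the strand of the gene.

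EPSTI1, - strand, chr13:42992242-42992391: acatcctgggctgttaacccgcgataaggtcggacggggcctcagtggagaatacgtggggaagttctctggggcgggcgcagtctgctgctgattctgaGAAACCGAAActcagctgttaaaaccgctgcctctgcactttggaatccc
IFI44L, + strand, chr1:78620298-78620447: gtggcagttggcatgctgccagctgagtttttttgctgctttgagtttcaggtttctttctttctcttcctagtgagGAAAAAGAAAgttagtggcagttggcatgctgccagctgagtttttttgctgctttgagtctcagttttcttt
IFI44, + strand, chr1:78649639-78649788: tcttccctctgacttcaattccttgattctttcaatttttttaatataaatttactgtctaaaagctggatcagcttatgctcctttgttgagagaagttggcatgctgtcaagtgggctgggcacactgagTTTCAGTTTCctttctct
HERC5, + strand, chr4:88456969-88457118: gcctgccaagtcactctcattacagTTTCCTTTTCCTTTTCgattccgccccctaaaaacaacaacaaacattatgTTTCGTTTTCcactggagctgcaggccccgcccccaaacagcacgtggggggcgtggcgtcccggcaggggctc
PLSCR1, - strand, chr3:146544608-146544757: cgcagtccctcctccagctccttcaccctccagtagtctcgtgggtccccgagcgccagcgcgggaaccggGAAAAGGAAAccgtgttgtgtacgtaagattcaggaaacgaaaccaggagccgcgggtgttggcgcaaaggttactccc
IFI6, - strand, chr1:27672193-27672342: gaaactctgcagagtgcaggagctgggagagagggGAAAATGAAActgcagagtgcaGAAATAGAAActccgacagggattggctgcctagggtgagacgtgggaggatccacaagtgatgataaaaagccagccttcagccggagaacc
IFI27, + strand, chr14:94110586-94110735: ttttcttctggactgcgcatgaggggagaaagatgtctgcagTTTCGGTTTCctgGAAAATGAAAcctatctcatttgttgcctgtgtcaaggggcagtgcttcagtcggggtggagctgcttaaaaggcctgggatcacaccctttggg
IFITM1, + strand, chr11:313890-314039: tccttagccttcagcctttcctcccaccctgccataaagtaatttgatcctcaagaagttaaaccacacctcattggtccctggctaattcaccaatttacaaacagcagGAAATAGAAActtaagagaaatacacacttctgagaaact

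By the choice of what is shown, all 8 carry the core. The place of IFITM1 among them is uncertain: it shares exon bases with IFITM2, and the sum of the pair fell 4.90-fold with BDS4 against TGF-β. Members with a core in a window had 21 of 28 lower with BDS4 than with TGF-β (median log2 ratio -1.77). Members without one had 7 of 9 lower (median -1.98). Of all genes tested, 18.9% were lower (median -0.07). Both sets thus had most of their members lower, and the difference between the sets was not tested. The search takes exact matches only: windows of OAS1 and XAF1, in the set without a core, hold GAAACGAAA. The sets therefore do not separate genes with an ISRE from genes without one.

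The levels of the members set the scale for what follows. Per kilobase of exon, a scale that allows genes to be compared, the most abundant member in the control was IFITM3, a membrane protein that blocks virus entry (101 CPM per kb). ISG15, the ubiquitin-like modifier, followed at 75.3, IFI6, a mitochondrial and endoplasmic reticulum protein, at 51.2, and BST2, the tetherin that holds budding virions, at 36.5. The lowest measured member was XAF1, a pro-apoptotic protein, at 0.329 CPM per kb. In sum, the 47 members stood at 1672 CPM in the control, 2352 with TGF-β, 951 with BDS4 and 1719 with RVX-208. The TGF-β library was thus the highest and the BDS4 library the lowest, with the control and RVX-208 close together between them. By gene, 35 of 46 members were highest with TGF-β (76.1%, against 22.4% of all genes tested). With BDS4, 42 of 46 were at their lowest (91.3%, against 41.7% of all genes tested).

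**Figure D1:**
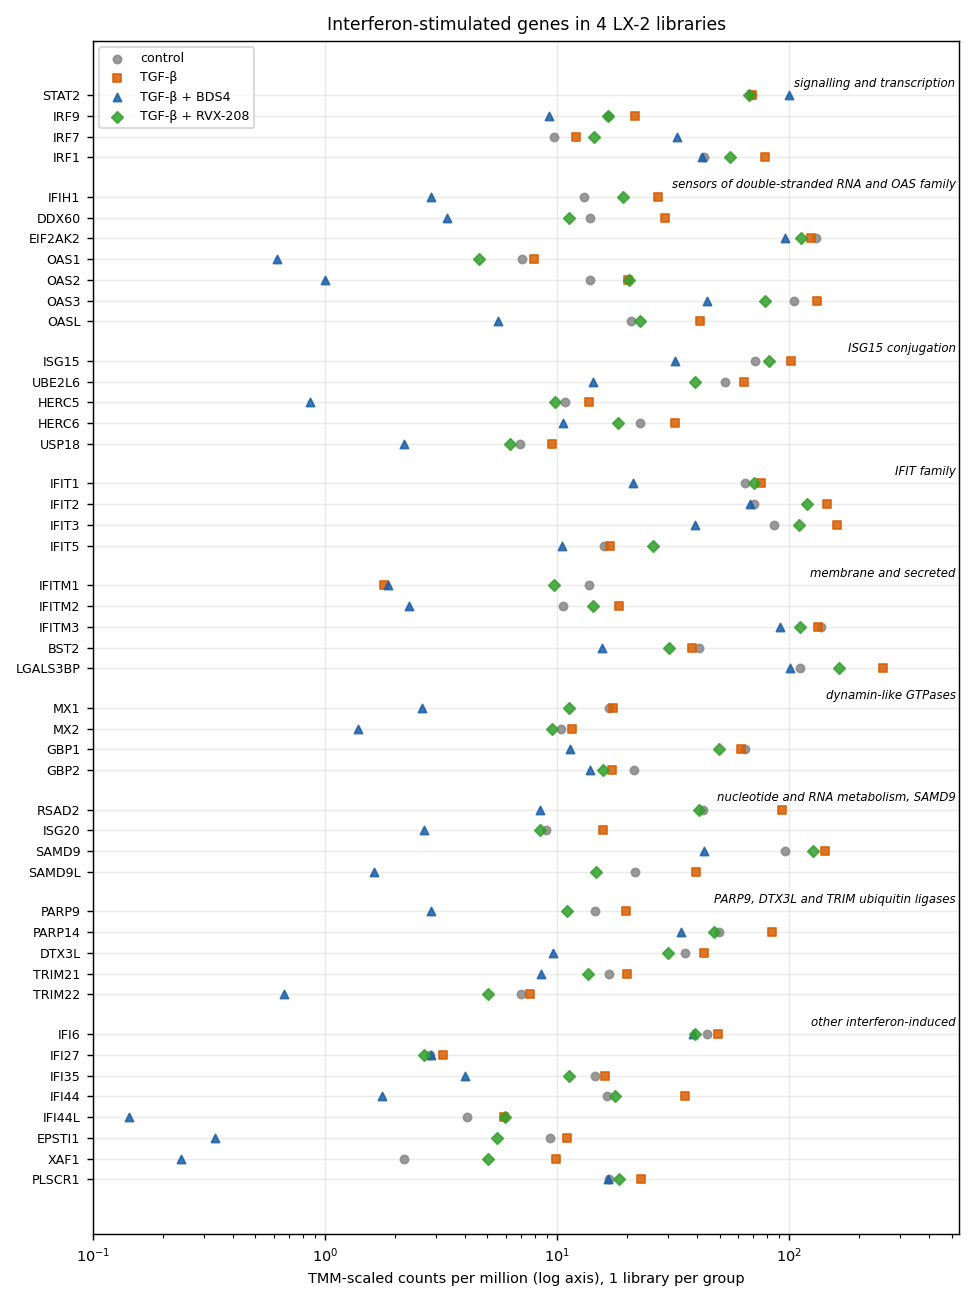
Level of each of the 46 measured genes in TMM-scaled CPM (x axis, log scale), grouped by role. Each marker is 1 library, with no error bar since each group has 1 library. For 42 of the 46 genes the BDS4 marker is the leftmost.

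Against the control, most members stood higher with TGF-β, by less than 2-fold in most of these. XAF1 rose most, 4.51-fold (3.31 to 6.25), and LGALS3BP, a secreted glycoprotein, 2.28-fold (2.17 to 2.39). In all, 7 of 46 members were at least 2-fold higher (15.2%, against 5.25% of all genes tested) and 1 was lower (2.17%, against 4.47%). The median log2 ratio of the members was 0.36, against -0.02 for all genes tested. Above 0 were 39 of 46 members (84.8%, against 47.8% of all genes tested). The other members called higher were RSAD2, IFI44, DDX60, IFIH1 and IFIT2, with ratios of 2.06 to 2.19. Under scaling by total counts IFIH1 and IFIT2 lost the call, with log2 ratios of 0.99 and 0.98.

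The lowered member was IFITM1, which encodes a cell-surface relative of IFITM3. Its counts were 322 in the control, 39 with TGF-β, 39 with BDS4 and 164 with RVX-208. IFITM2, next to it, had 249, 403, 48 and 242 counts in the same order. In GENCODE 29 the genes share 32.5% of the exon bases of IFITM1 on the same strand, and the treatment of shared fragments in counting is not stated in the labels. Summed, the pair stood at 24.4 CPM in the control, 20.3 with TGF-β, 4.15 with BDS4 and 24.0 with RVX-208. The sum was 1.20-fold lower with TGF-β (1.06 to 1.36), which is not a call, so the fall of IFITM1 alone is uncertain. With BDS4 the sum fell 4.90-fold (3.88 to 6.23) against TGF-β.

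With BDS4 added to TGF-β, most of the members fell. In these bulk cultures, fewer cells expressing a gene and less RNA per cell cannot be told apart. IFI44, a cytoplasmic interferon-induced protein, went from 35.6 to 1.76 CPM, 20.2-fold lower (14.5 to 28.9), and SAMD9L, an antiviral and growth-restraining protein, from 39.7 to 1.62 CPM, 24.5-fold lower (17.4 to 35.6). Against TGF-β alone, 35 of 46 members were lower (76.1%, against 18.9% of all genes tested) and 1 was higher, IRF7 (2.17%, against 13.3%). The median log2 ratio was -2.01, against -0.07 for all genes tested, and 10 members were at least 10-fold lower (21.7%, against 1.93%). Against the control, a comparison that uses the same BDS4 library, BDS4 left 31 of 46 lower (67.4%, against 19.6% of all genes tested) and 1 higher (2.17%, against 13.5%), with a median of -1.66.

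Fewer members passed the rule with RVX-208. This comparison, like that of BDS4 and that of TGF-β with control, uses the single TGF-β library. Its members called lower were 4 of 46 (8.70%, against 5.56% of all genes tested), a share close to that background, and 1 was called higher (2.17%, against 2.84%). The called members were SAMD9L (2.69-fold lower, 2.34 to 3.11), DDX60 (2.61-fold lower, 2.21 to 3.08), RSAD2 (2.27-fold lower, 2.08 to 2.48) and IFI44 (2.01-fold lower, 1.76 to 2.31), and on the higher side IFITM1. Summed with IFITM2, with which it shares exon bases, IFITM1 was 1.18-fold higher (1.03 to 1.36), which is not a call. The rise of IFITM1 alone is therefore uncertain. IFI44 lost its call when scaling factors were taken from genes with at least 1 CPM, with a log2 ratio of -0.98. Small differences went mostly 1 way: 41 of 46 members were below 0 (89.1%, against 52.9% of all genes tested), with a median log2 ratio of -0.51. With a 1.5-fold rule 18 members were lower (39.1%, against 11.2% of all genes tested). Against the control, RVX-208 had 0 of 46 members lower (against 7.23% of all genes tested) and 1 higher, XAF1 (2.17%, against 5.15%), and a median of -0.11.

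**Figure D2:**
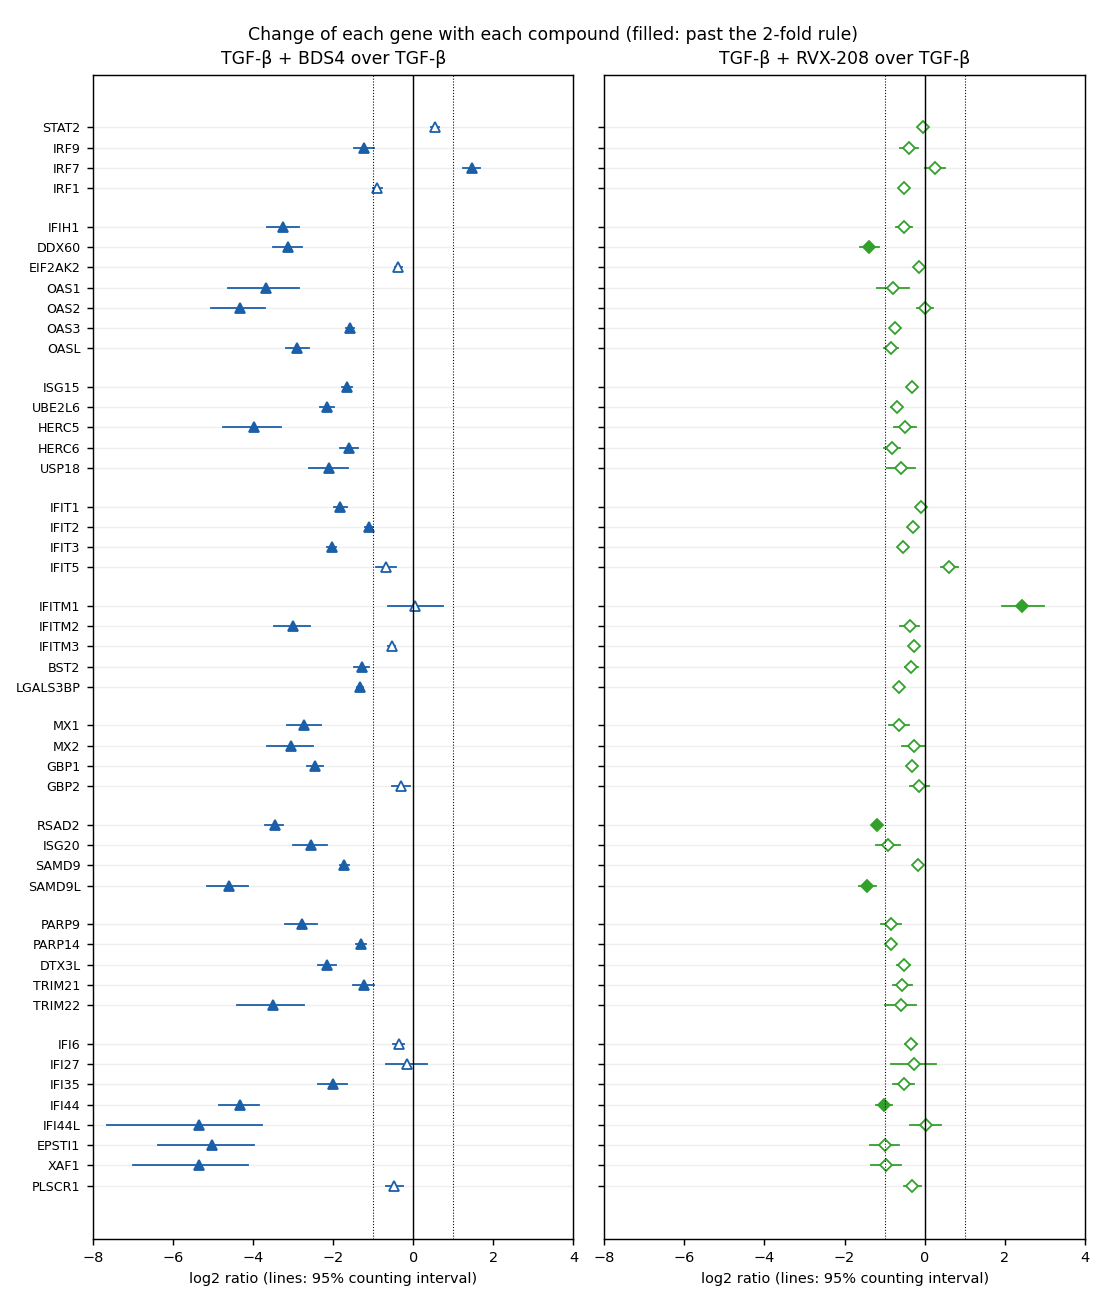
Log2 ratio of each gene over the TGF-β library for BDS4 (left) and RVX-208 (right). Horizontal lines are 95% counting intervals, dotted lines mark 2-fold, and filled markers passed the 2-fold rule. 35 genes are filled on the low side at left and 4 at right.

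Set directly against each other at the same dose and time, the compounds differed in most members. With BDS4, 29 of 46 were at least 2-fold lower than with RVX-208 (63.0%, against 13.8% of all genes tested), and IRF7 was higher (2.17%, against 11.1%). The median log2 ratio was -1.52, against -0.04 for all genes tested. OAS2 stood at 13.9 CPM in the control, 20.2 with TGF-β, 20.3 with RVX-208 and 1.0 with BDS4. The level with RVX-208 lay on that of TGF-β, 1.0-fold apart (0.870 to 1.16), and the level with BDS4 was 20.3-fold below that with RVX-208 (13.1 to 33.3). OAS2 was not typical of its role, the double-stranded RNA sensors and OAS family. There, 6 of 7 members had log2 ratios of RVX-208 over TGF-β below 0 (85.7%, against 52.9% of all genes tested), with a median of -0.75. With 1 library per compound the difference has no replicate check, and an absent call with RVX-208 does not show that it left a gene unchanged.

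**Figure D3:**
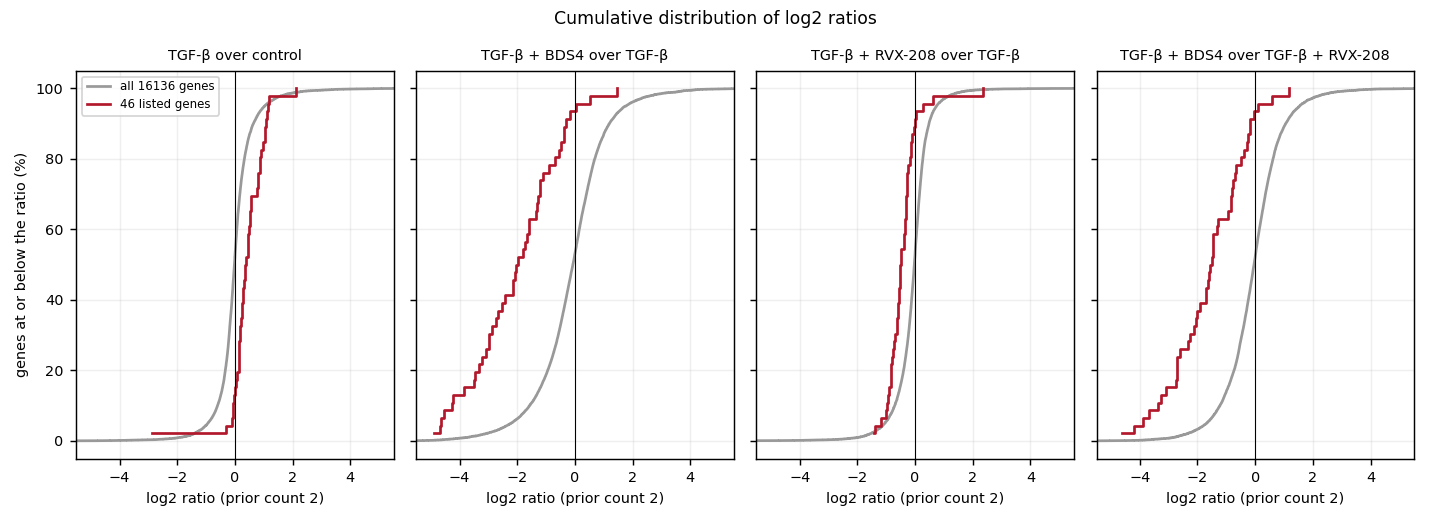
Cumulative share of genes (y axis, percent) at or below each log2 ratio (x axis, prior count 2) for 4 comparisons. The red line is the 46 measured interferon-stimulated genes and the grey line all 16136 genes tested. The red line lies right of the grey line over most of its length for TGF-β over control (medians 0.36 and -0.02) and far left of it for BDS4 over TGF-β (medians -2.01 and -0.07).

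The transcription factors of the response did not move as 1 group. STAT2, a subunit of ISGF3, stood at 68.9 CPM in the control, 68.7 with TGF-β, 99.5 with BDS4 and 66.6 with RVX-208, and passed the rule in no comparison. IRF9, the DNA-binding subunit, stood at 16.6, 21.5, 9.20 and 16.5 CPM in the same order and fell 2.34-fold with BDS4 (1.98 to 2.78). IRF9 overlaps another gene model on the same strand over 48.4% of its exon bases, so its level is uncertain. BDS4 thus had the highest level of STAT2 and the lowest of IRF9.

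IRF7, the factor that amplifies type I interferon production, went from 9.65 CPM in the control and 12.0 with TGF-β to 32.9 with BDS4 and 14.4 with RVX-208. Its rise with BDS4 was 2.74-fold over TGF-β (2.37 to 3.17). IRF1, an early target of type II interferon, stood at 42.8, 78.3, 42.0 and 55.2 CPM in the control, TGF-β, BDS4 and RVX-208 libraries. It was 1.86-fold lower with BDS4 than with TGF-β (1.72 to 2.02), short of the rule, and its BDS4 and control levels were 1.02-fold apart (0.930 to 1.12).

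The sensors of double-stranded RNA and the OAS family fell with BDS4 in 6 of 7 cases (85.7%, against 18.9% of all genes tested). Their median log2 ratio was -3.09, against -0.07 for all genes tested. IFIH1 encodes MDA5, the cytosolic sensor of long double-stranded RNA, and stood at 13.1 CPM in the control, 27.2 with TGF-β, 2.86 with BDS4 and 19.1 with RVX-208. Its fall with BDS4 was 9.52-fold (7.29 to 12.6). DDX60, a helicase linked to RNA sensing, stood at 13.9, 29.2, 3.34 and 11.2 CPM. For both genes the TGF-β library was the highest and the BDS4 library lay below the control.

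Of the oligoadenylate synthetases, which make the messenger that activates RNase L, OAS1 had 165, 173, 13 and 78 counts in the control, TGF-β, BDS4 and RVX-208 libraries and fell 12.8-fold with BDS4 (7.30 to 24.6). OAS3 was the most abundant, at 104, 132, 44.0 and 78.4 CPM, and fell 2.99-fold (2.78 to 3.23). OASL, the catalytically inactive relative, stood at 20.8, 41.1, 5.53 and 22.8 CPM and fell 7.44-fold (6.13 to 9.11). The neighbours OAS1, OAS3 and OAS2 lie together at chr12:112906777-113011723 (GRCh38), and their falls with BDS4 ranged from 2.99-fold to 20.2-fold. EIF2AK2, which encodes the kinase PKR, stood apart at 131, 124, 95.4 and 112 CPM and passed the rule in no comparison.

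All 5 members of the ISG15 conjugation system fell with BDS4 (median log2 ratio -2.06), against 18.9% of all genes tested. ISG15 stood at 70.8 CPM in the control, 102 with TGF-β, 32.2 with BDS4 and 81.4 with RVX-208, a 3.16-fold fall with BDS4 (2.90 to 3.45). UBE2L6, the conjugating enzyme that hands ISG15 on, stood at 52.8, 63.5, 14.2 and 39.1 CPM and fell 4.46-fold (3.93 to 5.07). HERC5, the main ligase, had 252, 297, 18 and 165 counts and fell 15.9-fold (9.89 to 27.2). Modifier, conjugating enzyme and ligase were each lowest with BDS4, as were 41.7% of all genes tested. With RVX-208 against TGF-β none of the 5 passed the rule, and 5.56% of all genes tested were called lower. All 5 had log2 ratios below 0 there (against 52.9% of all genes tested), with a median of -0.59.

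HERC6 lies beside HERC5 on chromosome 4 and stood at 22.7, 32.1, 10.6 and 18.3 CPM, with a fall of 3.03-fold (2.60 to 3.54). USP18, which removes ISG15 and blocks the type I receptor, had 161, 206, 46 and 106 counts and fell 4.31-fold (3.12 to 6.08). A negative regulator of the pathway was therefore among the lowered genes.

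The IFIT genes, whose proteins bind foreign RNA 5′ ends, lie side by side at chr10:89283694-89421001. IFIT3 stood at 86.0 CPM in the control, 161 with TGF-β, 39.3 with BDS4 and 110 with RVX-208, and fell 4.10-fold with BDS4 (3.80 to 4.43). IFIT1 stood at 64.7, 75.1, 21.3 and 70.3 CPM and fell 3.53-fold (3.18 to 3.93). IFIT2 stood at 70.3, 145, 67.5 and 119 CPM: it rose 2.06-fold with TGF-β (1.94 to 2.19), fell 2.15-fold with BDS4 (2.02 to 2.29), and its BDS4 and control levels were 1.04-fold apart (0.970 to 1.12). Another gene model overlaps 8.68% of the exon bases of IFIT2. IFIT5 differed in its order, at 15.9, 16.8, 10.5 and 25.8 CPM, and was the 1 member of the family that was highest with RVX-208, 1.53-fold over TGF-β (1.33 to 1.77) and short of the rule.

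Among the membrane and secreted proteins, 3 of 5 fell with BDS4 (60.0%, against 18.9% of all genes tested). BST2 stood at 40.8 CPM in the control, 38.0 with TGF-β, 15.5 with BDS4 and 30.2 with RVX-208, a fall of 2.45-fold with BDS4 (2.15 to 2.79). LGALS3BP, the member with the highest CPM in the TGF-β library, stood at 112, 254, 101 and 163 CPM and fell 2.52-fold (2.40 to 2.65). BST2 ended below the control and LGALS3BP beside it, 1.11-fold lower (1.05 to 1.17). IFITM3 stood at 137, 133, 91.1 and 111 CPM and passed the rule in no comparison.

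Of the large GTPases, MX1 and MX2, which trap viral nucleoproteins and capsids, fell with BDS4 to 55 and 29 counts. MX1 stood at 16.7, 17.4, 2.62 and 11.2 CPM in the control, TGF-β, BDS4 and RVX-208 libraries, and its fall was 6.62-fold (4.98 to 8.96). MX2 stood at 10.4, 11.5, 1.38 and 9.52 CPM, and its fall was 8.34-fold (5.67 to 12.7). TGF-β alone left both within 1.11-fold of the control. GBP1, a guanylate-binding protein of the type II response, stood at 64.3, 61.7, 11.3 and 49.6 CPM and fell 5.45-fold (4.74 to 6.28). Its neighbour GBP2 stood at 21.4, 17.2, 13.8 and 15.7 CPM and passed the rule in no comparison.

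RSAD2, which encodes viperin, a maker of chain-terminating nucleotides, was among the members with the widest range. It stood at 42.3 CPM in the control, 92.7 with TGF-β, 8.39 with BDS4 and 40.8 with RVX-208. It rose 2.19-fold with TGF-β (2.03 to 2.37) and fell 11.1-fold with BDS4 (9.47 to 13.0). With RVX-208 it came to the control level, 1.04-fold apart (0.939 to 1.14). CMPK2, its divergent neighbour on chromosome 2, had 4, 4, 0 and 2 counts, too few for any comparison.

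ISG20, an exonuclease, had 210, 344, 56 and 142 counts and fell 5.92-fold with BDS4 (4.45 to 8.0). SAMD9 and SAMD9L are paralogs that lie together at chr7:93099513-93148369. SAMD9 stood at 96.0, 142, 42.9 and 126 CPM and fell 3.30-fold (3.07 to 3.56), while SAMD9L stood at 21.5, 39.7, 1.62 and 14.7 CPM and fell 24.5-fold (17.4 to 35.6). The intervals of the falls did not overlap.

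PARP9 and DTX3L encode a mono-ADP-ribosyltransferase and its ubiquitin ligase partner and are transcribed from a shared region of chromosome 3. PARP9 stood at 14.5 CPM in the control, 19.8 with TGF-β, 2.86 with BDS4 and 11.1 with RVX-208, and fell 6.92-fold with BDS4 (5.27 to 9.23). DTX3L stood at 35.6, 43.0, 9.62 and 30.0 CPM and fell 4.46-fold (3.83 to 5.22). PARP14, a related ADP-ribosyltransferase, stood at 49.6, 84.5, 34.0 and 47.5 CPM and fell 2.48-fold (2.28 to 2.71). The ubiquitin ligase TRIM22 had 163, 166, 14 and 85 counts and fell 11.4-fold (6.62 to 21.4), and TRIM21, an intracellular antibody receptor, had 392, 436, 178 and 230 counts and fell 2.36-fold (1.98 to 2.83). All 5 members of this group were lowest with BDS4, against 41.7% of all genes tested. None passed the rule with RVX-208 against TGF-β, where 5.56% of all genes tested were called lower. Their log2 ratios there were all below 0 (against 52.9% of all genes tested), with a median of -0.59.

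The deepest falls were in genes of low level. IFI44L had 96 counts in the control, 128 with TGF-β, 3 with BDS4 and 101 with RVX-208, and its fall with BDS4 was 41.1-fold, with a wide interval (13.8 to 202). EPSTI1, an epithelial-stromal interaction gene, had 217, 239, 7 and 93 counts, and its fall was 32.9-fold (15.7 to 82.7). XAF1 had 51, 214, 5 and 85 counts, and its fall was 41.2-fold (17.4 to 128). The order among these 3 cannot be read from the folds, since their intervals overlap. IFI35 stood at 14.6, 16.1, 4.0 and 11.2 CPM and fell 4.03-fold (3.16 to 5.17).

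Some members passed the rule in no comparison. IFI6 stood at 44.3 CPM in the control, 49.4 with TGF-β, 38.3 with BDS4 and 39.1 with RVX-208. PLSCR1, a phospholipid scramblase, stood at 16.7, 22.9, 16.5 and 18.5 CPM, and IFI27 had 66, 70, 60 and 45 counts. With STAT2, IRF1, EIF2AK2, IFITM3 and GBP2 these made up the 8 of 46 members that passed the rule in none of the 6 comparisons. The matching share of all genes was not computed. An absent call does not show an unchanged gene. IRF1 was 1.83-fold higher with TGF-β than in the control (1.69 to 1.98), and STAT2 was 1.45-fold higher with BDS4 than with TGF-β (1.35 to 1.55).

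The genes above the members in the pathway, taken from lists drawn up for this report, gave a mixed picture. Most of the interferon genes had few counts. IFNB1, which encodes interferon-β, had 29 counts in the control, 28 with TGF-β, 7 with BDS4 and 19 with RVX-208, and IFNL1, a type III interferon, had 19, 41, 8 and 26. Both fell with BDS4 by the rule, 3.85-fold (1.64 to 10.5) and 4.94-fold (2.29 to 12.2). IFNE, an interferon of epithelia, had 59, 97, 114 and 172 counts and rose 2.28-fold with RVX-208 (1.77 to 2.96). IFNK and IFNL3 were listed at 0, and IFNG had 3 counts, all with BDS4.

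Of 9 receptor and kinase genes reported here, 3 were lower with BDS4 than with TGF-β (33.3%, against 18.9% of all genes tested) and 0 higher, with a median log2 ratio of 0.34. None of the 9 passed the rule with RVX-208 against TGF-β or with TGF-β against control. JAK1 stood at 217, 265, 477 and 310 CPM, 1.80-fold higher with BDS4 than with TGF-β (1.74 to 1.86), short of the rule, and 2.20-fold higher than in the control (2.12 to 2.27), past it.

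The type I receptor genes IFNAR1 and IFNAR2 did not pass the rule: IFNAR1 stood at 63.6, 71.5, 70.3 and 67.6 CPM and IFNAR2 at 18.9, 18.7, 32.9 and 24.4 CPM. Lowered were IFNGR2, a chain of the type II receptor (9.27, 16.8, 3.24 and 11.8 CPM, 5.20-fold, 4.01 to 6.84), and both chains of the type III receptor, IFNLR1 (6.96, 8.08, 1.91 and 4.26 CPM, 4.24-fold, 2.99 to 6.14) and IL10RB (26.0, 31.5, 13.8 and 33.6 CPM, 2.29-fold, 1.99 to 2.63). Another gene model on the same strand overlaps 38.1% of the exon bases of IL10RB and 44.2% of those of IFNAR2, so both levels are uncertain.

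**Figure D4:**
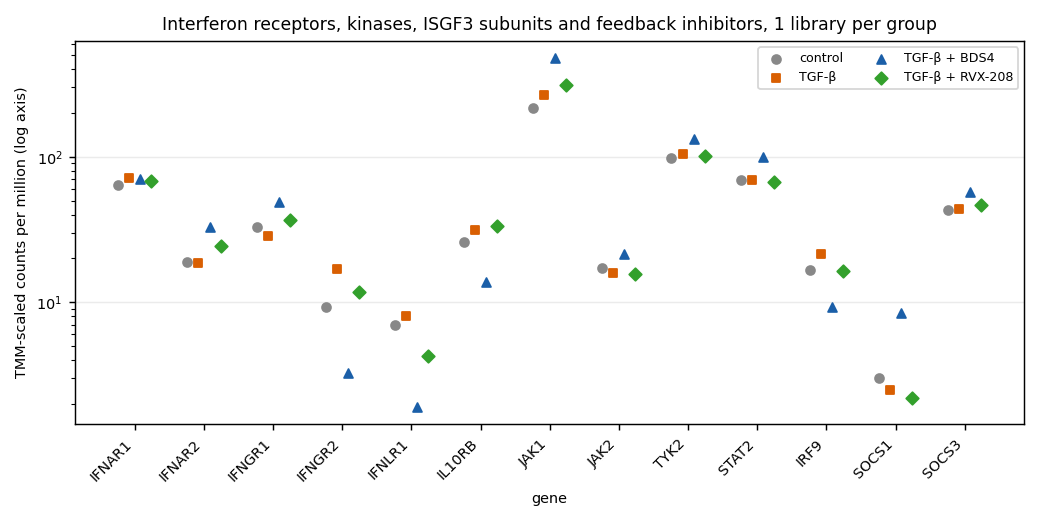
Levels of interferon receptor, kinase, STAT2, IRF9 and feedback genes in TMM-scaled CPM (y axis, log scale), with 1 marker per library. JAK1 is highest with BDS4 (477 CPM), while IFNGR2, IFNLR1, IL10RB and IRF9 are lowest with it.

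Of the sensors and adaptors, 4 of 9 measured fell with BDS4 (44.4%, against 18.9% of all genes tested) and 0 rose. With RVX-208, 2 of the 9 were lower than with TGF-β (22.2%, against 5.56%) and 0 higher (against 2.84%). With TGF-β, 2 were higher than in the control (22.2%, against 5.25%) and 0 lower (against 4.47%). DHX58, which encodes the RIG-I-like receptor LGP2, stood at 12.6 CPM in the control, 28.1 with TGF-β, 1.62 with BDS4 and 11.2 with RVX-208, and fell 17.3-fold with BDS4 (12.3 to 25.2) and 2.51-fold with RVX-208 (2.13 to 2.97). IKBKE, a kinase that activates IRF3 and IRF7, stood at 20.4, 23.9, 2.48 and 13.1 CPM and fell 9.64-fold with BDS4 (7.24 to 13.1). TLR3 and TICAM1, receptor and adaptor of the endosomal route, were the others, and TICAM1 lost its call under median-of-ratios scaling (log2 ratio -0.98). RIGI, MAVS, TBK1, IRF3 and CGAS did not pass the rule with BDS4, with ratios from 1.47-fold lower (MAVS) to 1.39-fold higher (TBK1). STING1 was listed at 0 in 3 libraries and had 7 counts with TGF-β.

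Feedback inhibitors had 1 of 4 higher with BDS4 than with TGF-β (against 13.3% of all genes tested) and 0 lower (against 18.9%). This was SOCS1, which blocks JAK kinases, with 70 counts in the control, 54 with TGF-β, 177 with BDS4 and 37 with RVX-208, a 3.40-fold rise over TGF-β (2.50 to 4.70). SOCS3 stood at 43.2, 43.6, 56.8 and 46.9 CPM.

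Another list held 30 further interferon targets that are no members. It was chosen with earlier results of these data known, so its shares are no independent check on the members. Of 28 measured, 17 were lower with BDS4 than with TGF-β (60.7%, against 18.9% of all genes tested) and 2 higher (7.14%, against 13.3%), with a median log2 ratio of -1.57. With RVX-208, 3 were lower (10.7%, against 5.56%) and 0 higher, with a median of -0.46. With TGF-β, 2 were higher (7.14%, against 5.25%) and 1 lower (3.57%, against 4.47%), shares close to those of all genes. CXCL10, a chemokine that attracts T cells, had 85, 135, 9 and 70 counts in the control, TGF-β, BDS4 and RVX-208 libraries, and GBP4, another guanylate-binding protein, 363, 1090, 83 and 600. CD274, which encodes the checkpoint ligand PD-L1, was low with both compounds, at 22.1, 27.9, 6.81 and 5.38 CPM, and its levels with BDS4 and RVX-208 were 1.27-fold apart (0.967 to 1.67). The targets that rose with BDS4 were TRIM25, the ligase that activates RIG-I, and NT5C3A, a nucleotidase. TRIM25 lost its call under scaling by total counts (log2 ratio 0.98).

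The BDS4 library also stood apart in some measures of RNA composition, whose part in these results was not tested. Mitochondrial ribosomal RNA took 0.903% of its counts against 0.212% to 0.248% in the others, and the long non-coding RNA NEAT1 stood at 941 CPM against 61.4 with TGF-β. NEAT1 and MALAT1, the other long non-coding RNA listed, were both higher by the rule with RVX-208 than with TGF-β (log2 ratios 1.04 and 1.47). For BDS4 over RVX-208 the log2 ratio was 2.89 for NEAT1 and -0.04 for MALAT1. The sum of epithelial markers, 473 CPM with TGF-β and 109 with BDS4, was also lower with BDS4, with KRT18 at 458 and 108 CPM of it. Of 8 measured stellate cell markers, 5 were lower with BDS4 than with TGF-β (62.5%, against 18.9% of all genes tested), with a median log2 ratio of -3.07. COL1A1 stood at 4769 and 99.7 CPM in these libraries, and PDGFRB at 138 and 5.81 CPM. VIM stood at 3600 and 3964 CPM and did not pass the rule.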

How the data were processed

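RNA was sequenced from LX-2 cells under 4 conditions with 1 library each. The authors deposited raw counts and FPKM values per gene. TopHat2 2.0.6, CASAVA 1.8 and GRCh38 are named in the submitters' processing notes, and per the labels' design text FPKM came from StringTie 1.3.0. The counter, annotation release and strandedness of counting were not given in the sources used here. Deposited FPKM values imply gene lengths of 1.03 to 17.0 times the GENCODE 29 exon union of the members, so levels per kilobase were computed from counts and that union.

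Counts were scaled by TMM over the whole table (edgeR 4.0.16, R 4.3.3), with factors of 1.04, 0.996, 0.971 and 0.993 for control, TGF-β, BDS4 and RVX-208. Genes with at least 1 CPM in 1 library were kept. Ratios carry 95% conditional exact (Clopper-Pearson) intervals. Medians use log2 ratios with a prior count of 2. Alternatives were scaling (total counts, and median-of-ratios size factors from DESeq2 1.42.0), low-count filters, 1.5-fold and 3-fold rules, a prior count of 0.5 and the mean. Other work used Python 3.11.15. Any member may be named. Members past the rule with at least 10 CPM, and members apart from their role, are given in every library. The falls of OAS1, USP18, TRIM22, IFI44L and XAF1, which are below that level, are given by choice after their values were seen. Members and lists were chosen with earlier results of these data known. Some items of the pathway lists are not reported here, and the counts for receptors and kinases leave them out.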

Additional observations from a re-analysis of the deposited data

How the results depend on the processing

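Of 144 values recomputed under alternative settings, 132 stayed within 1.5 times the count reported or within the 95% order-statistic interval of the median, and none changed sign. The other 12 were counts. With a 1.5-fold rule, 14 members were higher with TGF-β (30.4%, against 9.93% of all genes tested). With RVX-208 against TGF-β, 18 were lower (39.1%, against 11.2%) and 2 higher (4.35%, against 6.08%), and against control 2 were lower (4.35%, against 13.7%) and 3 higher (6.52%, against 9.95%). With a 3-fold rule, 1 was higher with TGF-β (2.17%, against 2.41%), 0 were higher with BDS4 against TGF-β (6.55% of all genes) or RVX-208 (5.21%), and 0 were lower with RVX-208 against TGF-β (2.27%) or higher against control (2.26%). Without the 6 members that share exons, a count chosen after seeing the data, 0 were lower with TGF-β and 0 higher with RVX-208 against TGF-β, since IFITM1 was left out. Scaling by total counts moved the median of all genes to -0.18 for BDS4 against control. No paired analysis was possible because each group holds 1 library. For the same reason no library could be left out. Depth limits IFI44L, EPSTI1 and XAF1, with at most 7 counts each with BDS4.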
